A study of Homo sapiens with 8 samples.

Results

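NF-kB is a family of dimeric transcription factors, and the 10 genes described here encode its 5 subunits and 5 proteins that regulate it. The 5 regulators are called inhibitors below, although *NFKBIZ* encodes an atypical nuclear IkB that works with NF-kB on a subset of its targets. The genes were taken by symbol, namely *NFKB1*, *NFKB2*, *REL*, *RELA* and *RELB* for the subunits, *NFKBIA*, *NFKBIB*, *NFKBIE* and *NFKBIZ* for IkB proteins, and *TNFAIP3* for a ubiquitin-editing enzyme, and 10 of 10 were among the 13842 genes of the table. All were measured by RNA-seq in 8 libraries, 2 from each of 4 groups. These were MCF10A, an immortalised, non-tumorigenic human breast epithelial line, and DCIS.COM, a line derived from it that forms ductal carcinoma in situ-like lesions, each stably transduced with the lentiviral vector pLOC, either empty (pLOC-empty) or carrying the full-length lncRNA *MALINC1* (pLOC-*MALINC1*). Every group, the controls included, therefore carried the pLOC vector and went through blasticidin selection. The sources describe no selection of single clones, and they do not say whether the 2 libraries of a group came from separate cultures, so p values measure only the spread between these libraries. In the growth medium, MCF10A cells also received epidermal growth factor, hydrocortisone, insulin and cholera toxin, which DCIS.COM cells did not, so cell line and medium cannot be told apart in any comparison between the lines.

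In resting cells NF-kB dimers are held in the cytoplasm by IkB proteins. Receptors of the TNF, IL-1 and Toll-like families activate the IKK kinases, which mark IkB for degradation and release mainly RELA with the processed *NFKB1* product (the canonical pathway), while the kinase NIK drives processing of the *NFKB2* precursor, which then pairs with RELB (the non-canonical pathway). Several of these genes are NF-kB targets themselves, *NFKBIA* and *TNFAIP3* being the best known feedback inhibitors, so their transcripts move both as parts and as outputs of the system. In breast epithelium the pathway is known for control of ductal growth, survival and inflammatory chemokines.

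The libraries held between 20604377 and 37550457 reads on genes. Levels are given in CPM, that is, read counts relative to library sizes scaled by the authors. Transcripts of *RN7SL1* and *RN7SL2*, the RNA of the signal recognition particle, took 13.2% and 12.3% of the reads in MCF10A with pLOC-empty and 10.4% and 11.7% with pLOC-*MALINC1*, against 15.7% and 14%, and 11.5% and 8.22%, in DCIS.COM. Counts of the 2 libraries differed most, relative to sampling noise, in DCIS.COM with pLOC-*MALINC1*. The chi-square per degree of freedom over genes was 20.6, against 3.31 to 6.35 in the other groups, with *RN7SL1* and *RN7SL2* included. On the log2 CPM scale the same pair correlated most closely over genes (Pearson r = 0.9969, against 0.9959 to 0.9967 in the other groups). The transgene checked the labels, since *MALINC1* was at 1.0 and 1.51 CPM in MCF10A with pLOC-empty and at 13.2 and 11.7 CPM with pLOC-*MALINC1*, and in DCIS.COM at 1.35 and 1.15 against 24.5 and 19.2 CPM. Of the listed mammary basal epithelial markers 10 of 10 were in the table. Their sums were 34922 to 35155 CPM in MCF10A with pLOC-empty and 42565 to 43851 CPM with pLOC-*MALINC1*. In DCIS.COM they were 4429 CPM with pLOC-empty and 3998 to 4203 CPM with the transgene. The sum of the 6 general epithelial markers, all in the table, went the other way between the lines. These markers summed to 2031 to 2135 CPM (pLOC-empty) and 2415 to 2575 CPM (pLOC-*MALINC1*) in MCF10A. In DCIS.COM the sums were 3992 to 4063 and 3908 to 4005 CPM. Not every marker followed its sum. Between the pLOC-empty groups (limma, adjusted p below 0.01), 4 epithelial markers were higher in DCIS.COM and 1 was lower. Of the 10 basal markers, 1 was higher and 8 were lower. Of the leukocyte markers 3 of 9 had values, summing to 24.4 to 38.6 CPM in MCF10A and 4.71 to 8.42 CPM in DCIS.COM. The 2 of 8 fibroblast markers in the table summed to 41.3 to 86.1 and 2.13 to 7.16 CPM, and the 1 of 5 endothelial markers to 0.680 to 1.03 CPM in MCF10A, 6.06 to 7.21 CPM in DCIS.COM with pLOC-empty, but 0.0874 to 0.177 CPM with the transgene. The other markers, the defining *PTPRC*, *CD3E*, *DCN*, *LUM* and *CDH5* among them, were not in the table. All libraries came from cultures of the epithelial lines named above, and the source of these marker reads was not tested. Within such a culture, fewer cells with a marker and less of its RNA per cell cannot be told apart in bulk libraries.

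For the comparisons, a gene is said to have risen or fallen where its adjusted p was below 0.01 (limma, Benjamini-Hochberg over all 13842 genes), and a DEG changed more than 2-fold in addition. Fold changes are on the log2 CPM scale, followed by their standard error (SE), and all have n = 2 libraries per group. A positive value is higher with pLOC-*MALINC1*, or in DCIS.COM where the lines are compared.

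In GRCh37, whose coordinates are given here from the GENCODE annotation, the 10 protein-coding genes lie on 8 chromosomes. The subunits are *NFKB1* (chr4:103422487-103538459, plus strand), *NFKB2* (chr10:104153867-104162281, plus), *REL* (chr2:61108626-61158747, plus), *RELA* (chr11:65421070-65430561, minus) and *RELB* (chr19:45504719-45541450, plus). The inhibitors are *NFKBIA* (chr14:35870285-35873955, minus), *NFKBIB* (chr19:39390340-39399533, plus), *NFKBIE* (chr6:44225903-44233525, minus), *NFKBIZ* (chr3:101546835-101579866, plus) and *TNFAIP3* (chr6:138188351-138204451, plus). Reads were counted over whole genes, and each member had between 107 and 2793 reads in a library.

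Before the levels, the promoters of the 2 genes with the smallest adjusted p in each line's comparison of the vectors are shown (*NFKBIA* and *TNFAIP3* in MCF10A, *NFKB2* and *NFKBIA* in DCIS.COM), since binding sites for NF-kB in them are part of how the system feeds back on itself. The table of RefSeq promoters, each from 250 bases before to 50 bases after a start site, held 14 promoters for 8 of the 10 genes, all of which matched GRCh37 exactly (*RELB* and *NFKBIE* were not in it). In the following promoters of *NFKBIA* (minus strand of chromosome 14), *TNFAIP3* (plus strand of chromosome 6) and *NFKB2* (plus strand of chromosome 10, 2 of its 3 start sites), written 5′ to 3′ on the strand of the gene, capitals mark each match of the NF-kB consensus, read on both strands.
NFKBIA chr14:35873906-35874205: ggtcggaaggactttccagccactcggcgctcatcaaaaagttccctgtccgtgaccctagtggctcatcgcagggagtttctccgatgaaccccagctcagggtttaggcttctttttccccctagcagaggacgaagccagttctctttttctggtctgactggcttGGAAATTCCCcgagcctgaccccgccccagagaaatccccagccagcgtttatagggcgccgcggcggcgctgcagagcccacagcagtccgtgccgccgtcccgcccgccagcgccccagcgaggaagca
TNFAIP3 chr6:138188146-138188445: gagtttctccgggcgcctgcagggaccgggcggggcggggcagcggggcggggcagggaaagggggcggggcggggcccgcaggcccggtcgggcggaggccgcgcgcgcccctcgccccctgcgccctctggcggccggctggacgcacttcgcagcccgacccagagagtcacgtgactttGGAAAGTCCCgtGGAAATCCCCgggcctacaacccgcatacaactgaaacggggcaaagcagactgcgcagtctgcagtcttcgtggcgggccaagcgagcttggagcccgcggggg
NFKB2 chr10:104154085-104154384: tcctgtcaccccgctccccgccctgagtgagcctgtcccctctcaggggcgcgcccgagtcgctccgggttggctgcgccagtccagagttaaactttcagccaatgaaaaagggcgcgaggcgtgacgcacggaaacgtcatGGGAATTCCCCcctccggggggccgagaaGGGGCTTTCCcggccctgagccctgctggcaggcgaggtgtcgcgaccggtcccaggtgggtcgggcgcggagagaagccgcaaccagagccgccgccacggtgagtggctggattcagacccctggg
NFKB2 chr10:104155212-104155511: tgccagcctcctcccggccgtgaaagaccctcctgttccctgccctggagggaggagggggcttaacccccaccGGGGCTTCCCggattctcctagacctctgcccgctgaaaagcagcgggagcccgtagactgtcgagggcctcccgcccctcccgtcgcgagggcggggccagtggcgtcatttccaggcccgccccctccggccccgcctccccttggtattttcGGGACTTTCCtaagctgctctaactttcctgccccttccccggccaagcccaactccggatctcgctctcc

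The *NFKBIA* promoter had 1 match, which started 81 bases before the start site. That of *TNFAIP3* had 2, at 67 and 55 bases before it. The 2 *NFKB2* promoters shown had 2 separate stretches each, the nearest 21 bases before the start site. The *NFKB2* promoter not shown (chr10:104153617-104153916) had no match. Overlapping matches make up 1 stretch. Of the 8 genes with a promoter in the table, 7 had a match in at least 1 of their promoters, against 13.3% of all 27305 genes, and 9 of the 14 promoters had a match, against 11.3% of all 35116. *RELA*, with 2 promoters, had none. The AP-1 consensus, spelled TGACTCA or TGAGTCA and searched on both strands, was in 0 of the 14 promoters and in 4.95% of all promoters. A match is a run of letters and not a measured binding site.

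**Figure D1:**
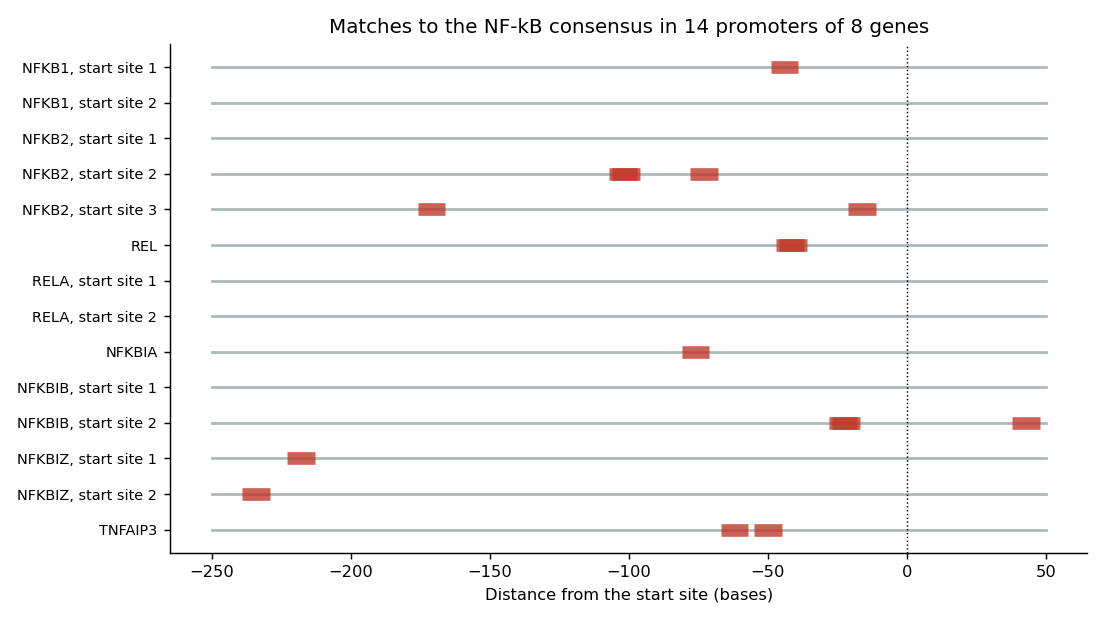
Position of NF-kB consensus matches (red) along 14 promoters of 8 genes (grey lines), with the distance from the start site in bases on the x axis. Matches lie within the 81 bases before the start site in *NFKB1*, *REL*, *NFKBIA* and *TNFAIP3*, and both *RELA* promoters are empty.

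The levels of the 10 genes differed widely. Per kilobase of the canonical GENCODE transcript, the scale on which genes can be compared with each other, *NFKBIA*, which encodes the prototypic IkB, was highest in each of the 4 groups, at 41.2 and 28.6 CPM per kb in MCF10A with pLOC-empty and pLOC-*MALINC1* and at 49.2 and 36.5 in DCIS.COM. *REL*, the subunit best known from lymphocytes, was lowest in all 4, at 0.694 to 0.832 CPM per kb. In MCF10A with pLOC-empty the order was *NFKBIA*, *NFKB1*, *RELA*, *NFKBIB*, *NFKB2*, *NFKBIZ*, *TNFAIP3*, *NFKBIE*, *RELB* and *REL*, and the ranges of *TNFAIP3* and *NFKBIE*, and of *NFKBIE* and *RELB*, overlapped between the libraries. In DCIS.COM with pLOC-empty, *RELB* and *NFKBIE* stood in places 6 and 7, ahead of *NFKBIZ* and *TNFAIP3*, and the only overlapping neighbours were *NFKB1* (18.1 CPM per kb) and *NFKBIB* (18.1). With pLOC-*MALINC1* the only neighbours that overlapped were *RELB* and *NFKBIE* in MCF10A, at 2.33 and 2.19 CPM per kb. When lengths were taken from all annotated exons together, *NFKBIA* and *REL* kept these ends of the order in every group, whereas *NFKB1* moved from place 2 to 4 in MCF10A and from place 2 to 7 in DCIS.COM with pLOC-empty. For *REL*, 51.3% of the exon bases also lie in an annotated lncRNA on the same strand, so its reads cannot be separated from that transcript.

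**Figure D2:**
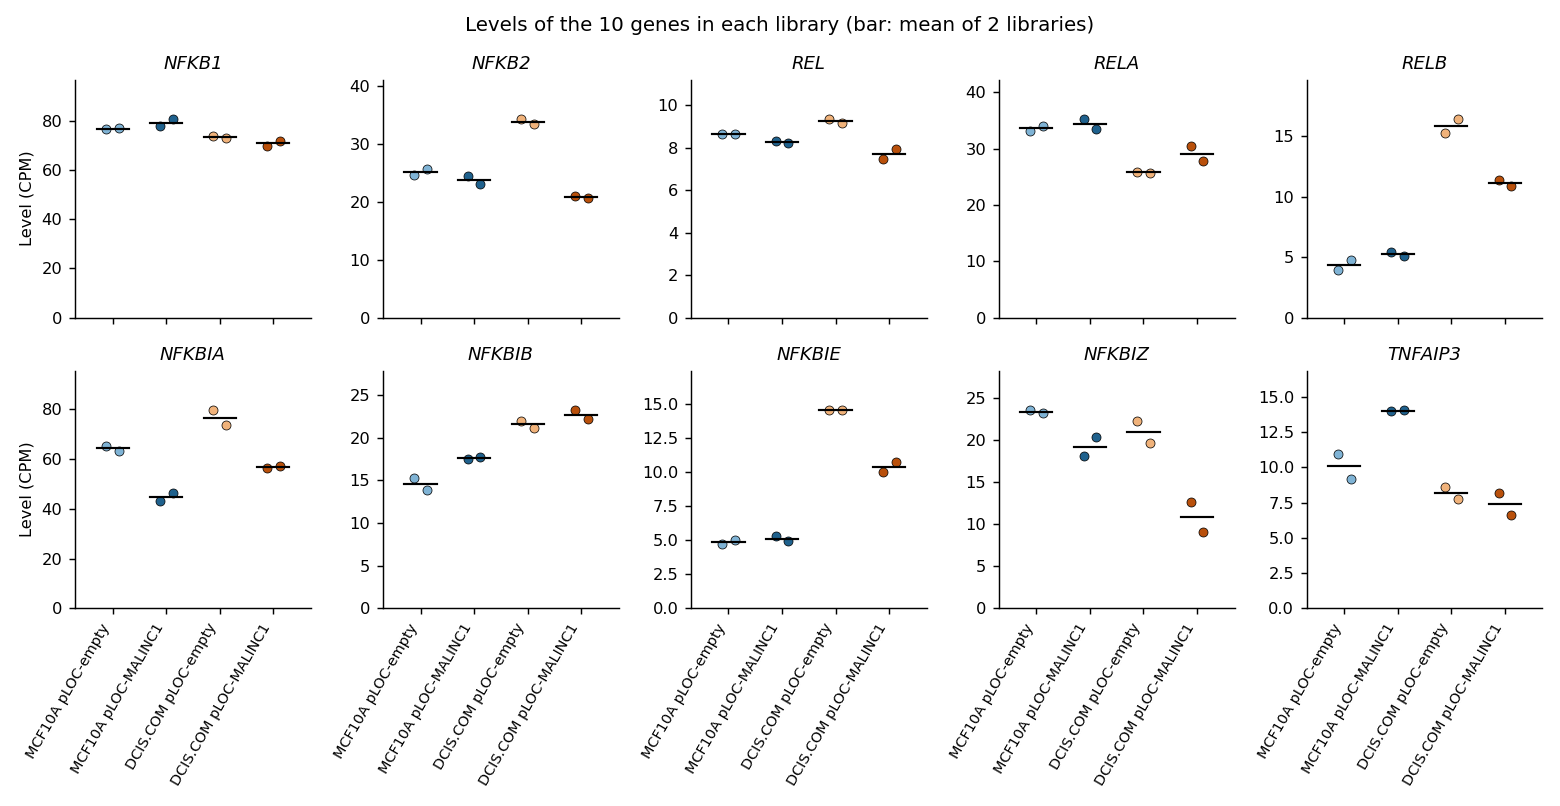
Levels (CPM, y axis from 0) of the 10 genes in each library (points), by group on the x axis, with the mean of the 2 libraries as a bar. *NFKBIA* is lower with pLOC-*MALINC1* in both lines (43.0 and 46.3 against 63.4 and 65.2 CPM in MCF10A), and *RELB* and *NFKBIE* are higher in all DCIS.COM libraries than in any MCF10A library.

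With pLOC-*MALINC1* in MCF10A, 3 of the 10 genes passed the threshold, all of them inhibitors. *NFKBIA* fell by 0.53 on the log2 scale, and *NFKBIB* and *TNFAIP3* rose by 0.27 and 0.48, whereas 0 of the 5 subunits passed (limma and, as an alternative, voom on the recovered reads). At an unadjusted p below 0.05, 1 subunit did, *RELB*. Among all genes tested, 39.6% passed in this comparison (21.5% higher and 18.1% lower), so 3 of 10 is no larger a share than that of the table as a whole. No member was a DEG, against 5.50% of all genes. The median log2 fold change of the 10 genes was 0.039, near that of all genes.

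*NFKBIA* was at 65.2 and 63.4 CPM in the pLOC-empty libraries and at 43.0 and 46.3 CPM in the pLOC-*MALINC1* libraries. The groups did not overlap, and the higher pLOC-*MALINC1* library lay well below the lower control. The level thus fell by 30.5% (log2 fold change -0.53, SE 0.050, adjusted p = 2.82e-06), and the gene passed in each fit without 1 of the libraries. *TNFAIP3*, which removes and attaches ubiquitin chains in TNF receptor signaling and is a feedback inhibitor, was at 10.9 and 9.21 CPM and rose to 14 and 14.1 CPM. Both libraries with the transgene were above both controls, and the controls were farther apart than the pLOC-*MALINC1* libraries. The log2 fold change was 0.48 (SE 0.12, adjusted p = 0.00523), but the call was lost without pLOC-empty replicate 2 (0.36, adjusted p = 0.0629) and without pLOC-*MALINC1* replicate 1 (adjusted p = 0.0310) or 2 (adjusted p = 0.0344). *NFKBIB*, which encodes a slowly degraded IkB, was at 15.3 and 13.9 against 17.4 and 17.7 CPM. Here too the groups did not overlap, but neither did those of *NFKB1*, *NFKB2* and *REL*, which did not pass. Such a gap between pairs of libraries is thus not particular to the called genes, and its share among all genes was not computed. Its log2 fold change was 0.27 (SE 0.070, adjusted p = 0.00676), and the adjusted p exceeded 0.01 without any of 5 libraries, at most 0.0707 without pLOC-empty replicate 2. The call of *NFKBIB* was also lost after median scaling (adjusted p = 0.0109), with totals without *RN7SL1* and *RN7SL2* (0.0169) and with MCF10A fitted alone (0.0437), and that of *TNFAIP3* with MCF10A fitted alone (0.0284).

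The remaining inhibitors and the subunits did not pass in MCF10A. *NFKBIZ*, an atypical nuclear IkB that works with NF-kB on a subset of its targets, was at 23.5 and 23.2 against 18.1 and 20.3 CPM (-0.28, SE 0.13, adjusted p = 0.0813). *RELB* was at 3.97 and 4.74 against 5.41 and 5.10 CPM (0.27, SE 0.11, adjusted p = 0.0559). For both genes the groups were apart, yet the difference was not larger than the spread allows at this threshold. *NFKBIE*, which encodes a further IkB with feedback function, overlapped between the groups, at 4.76 and 5.05 against 5.32 and 4.95 CPM. *NFKB1* (0.045), *NFKB2* (-0.080), *REL* (-0.062) and *RELA* (0.032) had log2 fold changes with 95% intervals that included 0, the widest being that of *REL*, from -0.26 to 0.14, and the values of *NFKB1* and *RELA* turned to -0.017 and -0.020 after quantile normalization.

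In DCIS.COM, 5 of the 10 genes fell with pLOC-*MALINC1* and 0 rose, the 5 being *NFKB2* and *RELB*, the pair of the non-canonical pathway, and the inhibitors *NFKBIA*, *NFKBIE* and *NFKBIZ*. At an unadjusted p below 0.05 (limma) 1 gene was higher, *RELA*, and with voom again 0 rose. Among all genes, 33.2% passed, 16.7% lower and 16.4% higher. None of the 10 genes was a DEG (4.53% of all genes were), so every fall stayed under 2-fold. The median log2 fold change of the 10 genes was -0.35, beside 0.0089 over all genes.

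*NFKB2* was at 34.3 and 33.4 CPM in the pLOC-empty libraries and at 21.0 and 20.7 CPM in the pLOC-*MALINC1* libraries. The libraries of each group nearly coincided and the groups were far apart. The level fell by 38.3% (log2 fold change -0.70, SE 0.057, adjusted p = 1.09e-06). *RELB* was at 15.3 and 16.4 against 11.4 and 10.8 CPM, again without overlap. Its log2 fold change was -0.51 (SE 0.11, adjusted p = 0.00257), and the adjusted p rose above 0.01 without any 1 of the 4 DCIS.COM libraries, to between 0.0104 without pLOC-empty replicate 1 and 0.0288 without pLOC-empty replicate 2.

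The other subunits showed smaller differences that did not pass, although their groups did not overlap either. As in MCF10A, such a gap was not particular to the called genes, and its share among all genes was not computed. *NFKB1*, the subunit with the highest CPM, was at 73.9 and 73.1 against 69.8 and 71.8 CPM (-0.054, SE 0.038, adjusted p = 0.262). *RELA*, which encodes the main transactivating subunit of the canonical pathway, was at 25.9 and 25.7 against 30.5 and 27.8 CPM (0.17, SE 0.058, adjusted p = 0.0292). It was the only subunit whose value was above 0 in this comparison. *REL* was at 9.33 and 9.17 against 7.46 and 7.95 CPM (-0.26, SE 0.093, adjusted p = 0.0361).

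Among the inhibitors, *NFKBIZ* showed the largest fold change of the 10 genes, from 22.2 and 19.6 CPM to 12.7 and 9.04 CPM. The groups did not overlap, although the libraries within each group differed by more than for most other members. The log2 fold change was -0.96 (SE 0.13, adjusted p = 6.21e-05), ranged from -1.20 to -0.72 when 1 library was left out and passed in each of those fits. The lowest library, pLOC-*MALINC1* replicate 2, was also the one with the lowest share of *RN7SL1* and *RN7SL2* reads (8.22%). With totals that leave these 2 genes out, *NFKBIZ* had -0.93 and still passed, but with DCIS.COM fitted alone its call was lost (-0.96, adjusted p = 0.0171). *NFKBIA* was at 79.7 and 73.8 against 56.4 and 57.4 CPM, without overlap. Its level fell by 25.8% (log2 fold change -0.43, SE 0.050, adjusted p = 1.95e-05). *NFKBIE* was at 14.6 and 14.6 against 10.0 and 10.8 CPM (-0.48, SE 0.10, adjusted p = 0.00177), and its call was lost without pLOC-empty replicate 1 (adjusted p = 0.0124) or 2 (adjusted p = 0.0136) without pLOC-*MALINC1* replicate 1 (adjusted p = 0.0220) and with DCIS.COM fitted alone (adjusted p = 0.0105). *NFKBIB* (22.0 and 21.1 against 23.2 and 22.1 CPM) and *TNFAIP3* (8.58 and 7.78 against 8.16 and 6.59 CPM) did not pass, and the groups of *TNFAIP3* overlapped.

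**Figure D3:**
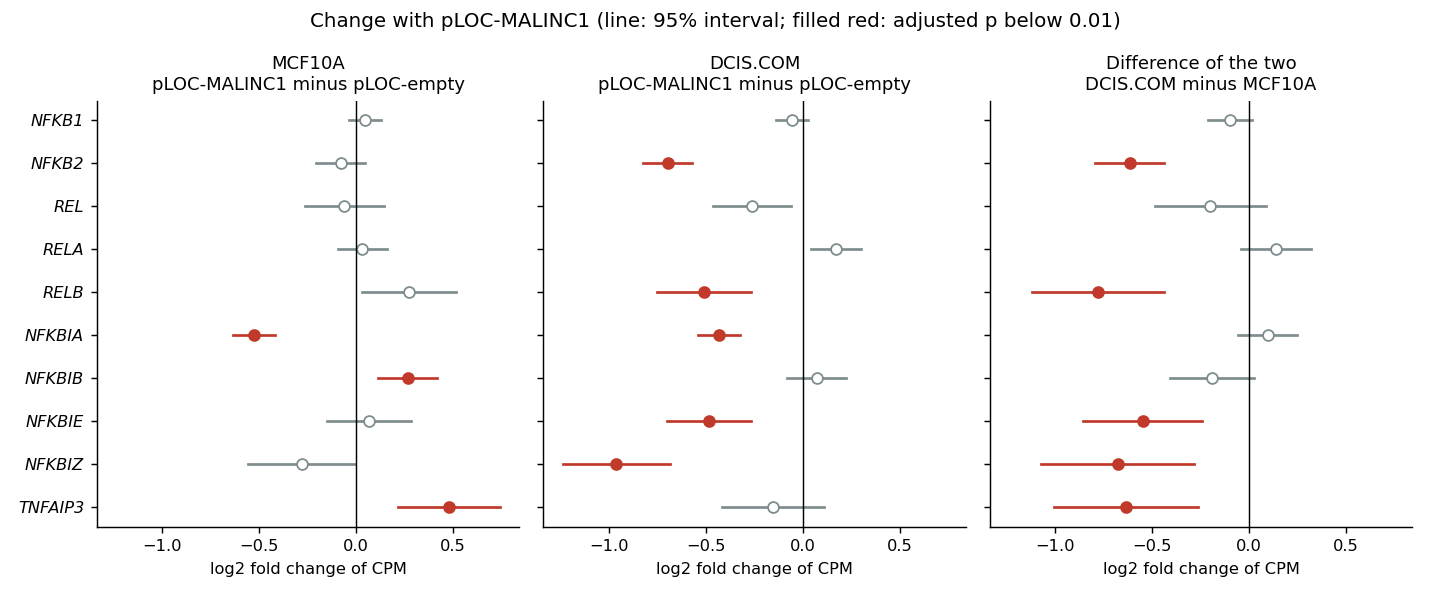
Log2 fold change of CPM with pLOC-*MALINC1* against pLOC-empty (x axis) for each of the 10 genes in MCF10A (left) and DCIS.COM (middle), and the difference between the lines (right), with 95% intervals as lines and adjusted p below 0.01 in filled red. *NFKBIA* lies left of 0 in both lines (-0.53 and -0.43), and all 5 filled points of the right panel lie left of 0, from -0.78 to -0.55.

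The responses of the lines were compared by the difference between the log2 fold changes, DCIS.COM minus MCF10A, which uses the libraries of both comparisons above. With pLOC-*MALINC1* the transgene was at a mean of 21.8 CPM in DCIS.COM and 12.5 CPM in MCF10A (0.79, SE 0.19, limma adjusted p = 0.00187). Cell line, medium and transgene level therefore cannot be told apart here. The difference between the responses passed for 5 of the 10 genes, *NFKB2*, *RELB*, *NFKBIE*, *NFKBIZ* and *TNFAIP3*, and was below 0 in all 5. Of all genes, 35.9% passed in either direction and 20.3% below 0. Over all genes 2162 of these differences were above 0 and 2810 below, and with totals that leave out *RN7SL1* and *RN7SL2* this split turned to 2817 and 2267. *RELB* differed most, with 0.27 in MCF10A and -0.51 in DCIS.COM (difference -0.78, SE 0.16, adjusted p = 0.00135). *NFKB2* had -0.080 and -0.70 (difference -0.62, SE 0.081, adjusted p = 5.42e-05). Of the 5, these were the only ones that passed in each fit without 1 library. The differences of *NFKBIZ* (-0.68, SE 0.18, adjusted p = 0.00788), *TNFAIP3* (-0.63, SE 0.17, adjusted p = 0.00838) and *NFKBIE* (-0.55, SE 0.14, adjusted p = 0.00659) were closer to the threshold, and the count of 5 dropped to 3 after quantile normalization or median scaling, to 2 with totals without *RN7SL1* and *RN7SL2*, and to between 2 and 4 without 1 library. Each of the 8 libraries cost at least 1 of these 3 calls when it was left out. For *NFKBIA*, which fell in both lines, the difference was 0.096 (95% interval -0.057 to 0.25, adjusted p = 0.280), so a difference between the lines was not detected, and the interval leaves room for a smaller fall in DCIS.COM by up to 0.25.

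Without the transgene, DCIS.COM differed from MCF10A mainly in *RELB* and *NFKBIE*. *RELB* was at 15.3 and 16.4 CPM in DCIS.COM against 3.97 and 4.74 CPM in MCF10A, which is 3.60-fold higher (log2 fold change 1.85, SE 0.11, adjusted p = 6.25e-09). *NFKBIE* was at 14.6 and 14.6 against 4.76 and 5.05 CPM, 2.94-fold higher (1.56, SE 0.10, adjusted p = 1.20e-08). These were 2 DEGs among 10 genes, a share below the 28.6% of all genes. In all, 6 of the 10 genes passed, beside 73.9% of all genes. *NFKB2* (0.43), *NFKBIA* (0.25) and *NFKBIB* (0.56) were also higher in DCIS.COM, and *RELA* was lower at -0.38 (SE 0.058, adjusted p = 5.60e-05), while *NFKB1*, *REL*, *NFKBIZ* and *TNFAIP3* did not pass.

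Between the pLOC-*MALINC1* groups, *RELB* and *NFKBIE* were again DEGs higher in DCIS.COM, at 1.07 (SE 0.11, adjusted p = 1.51e-06) and 1.01 (SE 0.10, adjusted p = 9.64e-07), with 26.6% of all genes being DEGs. In this comparison 9 of the 10 genes passed, all but *REL*, beside 73.0% of all genes. *TNFAIP3* was at 8.16 and 6.59 CPM in DCIS.COM against 14 and 14.1 CPM in MCF10A (-0.93, SE 0.12, adjusted p = 1.27e-05), and *NFKBIZ* at 12.7 and 9.04 against 18.1 and 20.3 CPM (-0.84, SE 0.13, adjusted p = 5.28e-05). *NFKBIA* (0.35) and *NFKBIB* (0.37) were higher. *RELA* (-0.24), *NFKB2* (-0.19) and *NFKB1* (-0.16) were lower, but they depended on the scaling. With totals that leave out *RN7SL1* and *RN7SL2* the median of all genes was at 0.18 and the split of genes higher and lower in DCIS.COM went from 4948 and 5154 to 6314 and 3902. The values of *RELA* and *NFKB2* became -0.059 and -0.011 and no longer passed, and *NFKB1* turned to 0.019. *NFKB2* lost its call without any of the 8 libraries, at most with an adjusted p of 0.0689 without MCF10A pLOC-*MALINC1* replicate 1. *RELA* lost it without that library (-0.20, adjusted p = 0.0249) or DCIS.COM pLOC-*MALINC1* replicate 2 (-0.17, adjusted p = 0.0321), and *NFKB1* without MCF10A pLOC-*MALINC1* replicate 2 (-0.14, adjusted p = 0.0177) or DCIS.COM pLOC-*MALINC1* replicate 1 (-0.14, adjusted p = 0.0165). Both comparisons of the lines share their libraries with those of the vectors.

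Shares within a library do not depend on how libraries were scaled. The 5 subunits were counted per kilobase of the canonical transcript. *NFKB1* made up 43.7% in MCF10A with pLOC-empty and 44.2% with pLOC-*MALINC1*. In DCIS.COM it made up 38.2% with pLOC-empty and 42.0% with pLOC-*MALINC1*. *RELB* made up 4.44% and 5.27% in the MCF10A groups, against 14.8% and 11.8% in the DCIS.COM groups. *NFKB2* had its highest share in DCIS.COM with pLOC-empty, at 23.4% and 24.0% in its libraries, and its lowest with pLOC-*MALINC1* in the same line, at 16.6% and 16.7%, below the 17.5% to 19.5% of the MCF10A libraries. The ratio of *NFKB2* to *NFKB1* per kilobase was 0.431 and 0.451 in MCF10A with pLOC-empty, 0.423 and 0.387 with pLOC-*MALINC1*, 0.624 and 0.615 in DCIS.COM with pLOC-empty and 0.405 and 0.388 with pLOC-*MALINC1*. The DCIS.COM libraries with the transgene thus lay within the range of the MCF10A libraries, while those without it lay above. For *RELB* to *RELA* the ratio was 0.134 to 0.171 in MCF10A. In DCIS.COM it was 0.657 and 0.709 with pLOC-empty and 0.416 and 0.436 with pLOC-*MALINC1*. It thus fell in DCIS.COM and remained above all MCF10A libraries. The size of these shares and ratios depends on the lengths used. With lengths from all annotated exons, *RELA* was above *NFKB1* in every group. In DCIS.COM with pLOC-empty, *NFKB1* (4.69 CPM per kb) was then also below *NFKB2* (6.06) and *RELB* (5.28).

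**Figure D4:**
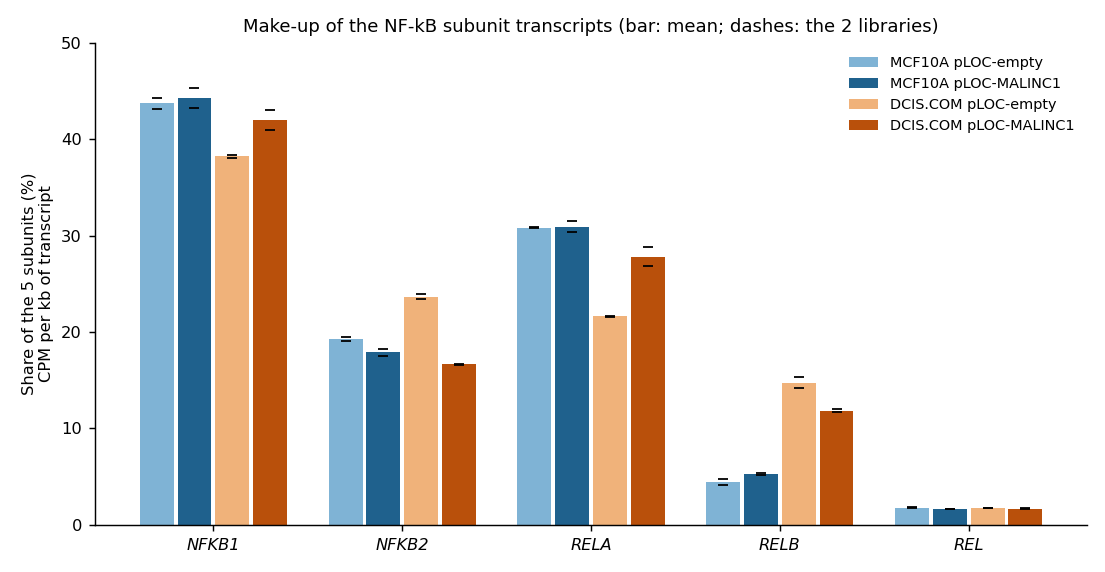
Share (%, y axis) of each of the 5 subunits (x axis) in their summed CPM per kb of the canonical transcript. Bars show the mean of each group and dashes the 2 libraries. *RELB* has 4.44% and 5.27% in the MCF10A groups but 14.8% and 11.8% in those of DCIS.COM, and *REL* stays between 1.60% and 1.82% in all libraries.

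The ratio of *NFKBIA* to *RELA*, an inhibitor transcript against that of the subunit it binds, was lower in each pLOC-*MALINC1* library than in any pLOC-empty library of the same line. It was 3.19 and 3.0 against 1.97 and 2.23 in MCF10A, and 4.97 and 4.63 against 2.99 and 3.34 in DCIS.COM. These ratios are given as a description and were not tested.

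Over the 8 libraries, after the mean of each line was taken off, *NFKB2* went most closely with *LASP1* (Pearson r = 0.999), *NFKBIA* with *SLC25A29* (0.998), *RELB* with *WDR61* (0.991), *TNFAIP3* with *DDX5* (0.993) and *NFKBIZ* with *RN7SL2* (0.988). Within the family, *NFKB2* went with *REL* (0.959), *NFKBIE* (0.953) and *NFKBIZ* (0.915). These values describe 8 points that share 4 groups and their depth, and for *NFKB2* alone 683 of the 10741 genes compared had an r over 0.9. *RELA* ran opposite to *REL* (-0.905) and *NFKB2* (-0.795).

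The surroundings of the 10 genes in the pathway were read from lists of named genes, beginning with the receptors and adaptors that feed into NF-kB. These lists were chosen with earlier results of these data known, so their shares beside those of all genes are descriptions only. In MCF10A 7 of 20 in the table rose and 2 fell with pLOC-*MALINC1*, beside 21.5% and 18.1% of all genes. *TLR4*, the receptor for bacterial lipopolysaccharide, rose from 5.48 and 5.40 to 14.6 and 13.4 CPM (1.35, SE 0.078, adjusted p = 3.97e-08), and *IL1RAP*, the co-receptor for IL-1, from 27.9 and 28.5 to 63.6 and 61.4 CPM (1.15, SE 0.039, adjusted p = 4.29e-10). The genes that fell were *IL1R1*, the IL-1 receptor itself, from 21.6 and 21.5 to 13.3 and 12.2 CPM (-0.76, SE 0.17, adjusted p = 0.00255), and the TNF receptor *TNFRSF1A* (-0.31, adjusted p = 8.31e-05). In DCIS.COM 4 of 20 rose and 1 fell, beside 16.4% and 16.7% of all genes. The receptor RANK, encoded by *TNFRSF11A*, rose from 10.6 and 11.3 to 23.4 and 22.7 CPM (1.07, SE 0.099, adjusted p = 2.77e-06). The fall was that of *IRAK2*, a kinase downstream of IL-1 and Toll-like receptors (-0.89, adjusted p = 0.000103). In MCF10A *TNFRSF11A* was at 10.8 and 13.2 against 10.9 and 10.1 CPM and did not pass, and the difference between the lines was 1.26 (adjusted p = 1.22e-05).

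Of the 12 IKK, TAK1 and NIK kinases and their adaptors, 1 rose and 1 fell in MCF10A, *CHUK* (0.29) and *TAB2* (-0.26), beside 21.5% and 18.1% of all genes. In DCIS.COM 4 fell and 0 rose, beside 16.7% and 16.4% of all genes. The 4 were *IKBKE*, a non-canonical IKK kinase (-0.87, adjusted p = 7.95e-06), its adaptors *TANK* (-0.31) and *AZI2* (-0.35), and *TAB2* (-0.35). *IKBKE* was at 20.6 and 23.1 CPM in DCIS.COM with pLOC-empty, dropped to 11.7 and 12.1 CPM with the transgene, and was at 6.60 to 8.27 CPM in all MCF10A libraries. Of the core IKK complex, the catalytic subunit *CHUK* thus rose in MCF10A and had 0.033 in DCIS.COM, whereas the catalytic *IKBKB* and the regulatory *IKBKG* did not pass in either line. The kinases *MAP3K7* (TAK1) and *MAP3K14* (NIK) did not pass in either line, and neither did the further IkB family genes *BCL3* and *NFKBID*.

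Of 14 ubiquitin ligases and editors that act beside *TNFAIP3*, 3 rose and 2 fell in MCF10A, beside 21.5% and 18.1% of all genes. In DCIS.COM 1 rose and 7 fell, beside 16.4% and 16.7%. *BIRC3*, a ubiquitin ligase of TNF receptor complexes and itself an NF-kB target, was at 42.4 and 42.4 CPM in DCIS.COM with pLOC-empty and at 12.8 and 11.7 CPM with pLOC-*MALINC1* (-1.79, SE 0.051, adjusted p = 9.37e-11). In MCF10A it was at 71.0 to 78.7 CPM in all libraries. *TNIP1*, a binding partner of the *TNFAIP3* product, fell from 135 and 137 to 62.4 and 64.7 CPM in DCIS.COM (-1.10, SE 0.044, adjusted p = 1.89e-09) and rose from 99.6 and 102 to 135 and 123 CPM in MCF10A (0.36, adjusted p = 2.74e-05). The difference between the lines passed for both genes, at -1.89 and -1.45.

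On the output side, of 50 listed NF-kB target genes, 35 were in the table. *TNF*, *IL6*, *CCL2*, *CXCL10* and *TRAF1* were among those that were not. This list too was chosen with earlier results known, so the shares below describe these genes and not NF-kB targets as a class. In MCF10A 12 of the 35 rose and 5 fell, including 4 DEGs that rose, against 21.5% and 18.1% of all genes and 2.99% for rising DEGs. Of these 4, those that reached 5 CPM in a group were 3 chemokines that attract neutrophils, *CXCL8* rising from 2.66 and 2.61 to 9.33 and 9.56 CPM (1.82, SE 0.082, adjusted p = 5.22e-09), *CXCL1* from 11.7 and 12.3 to 37.7 and 37.1 CPM (1.63, SE 0.057, adjusted p = 4.86e-10) and *CXCL5* from 10.6 and 10.8 to 27.9 and 27.5 CPM (1.37, SE 0.20, adjusted p = 0.000100). The remaining DEG, *PTX3*, had the largest fold change (1.96) at levels under 1 CPM, and the related chemokines *CXCL2* (0.50, adjusted p = 0.0237) and *CXCL3* (0.15, adjusted p = 0.592) did not pass. The median log2 fold change of the list was 0.35.

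In DCIS.COM 25 of the 35 target genes fell and 2 rose with pLOC-*MALINC1*, beside 16.7% and 16.4% of all genes. The 2 were *PTGS2*, encoding an inducible cyclooxygenase (0.48), and *SELE*, an adhesion receptor (1.18, at group means of 0.590 and 1.45 CPM), both named after their values were seen. Of the genes that fell, 13 were DEGs, beside 3.08% of all genes. The acute-phase genes *SAA1* and *SAA2*, whose near-identical sequences make the split of reads between them uncertain, went from 16.5 and 14.7 to 0.117 and 0.207 CPM (-6.10, SE 0.16, adjusted p = 4.13e-11) and from 10.8 and 10.4 to 0.0874 and 0.177 CPM (-5.75, SE 0.18, adjusted p = 2.23e-10). *LCN2*, an iron-binding protein of innate defence, fell from 294 and 282 to 32.5 and 30.2 CPM (-3.20, SE 0.085, adjusted p = 4.62e-11). *KYNU*, an enzyme of tryptophan breakdown, fell from 49.7 and 50.5 to 6.41 and 7.54 CPM (-2.84, SE 0.067, adjusted p = 1.64e-11), and *IL1B*, encoding the cytokine IL-1 beta, from 12.9 and 13.0 to 2.39 and 2.07 CPM (-2.50, SE 0.22, adjusted p = 1.96e-06). *PTX3*, a secreted pattern-recognition protein, had 227 and 210 reads in the pLOC-empty libraries and 2 and 0 in the pLOC-*MALINC1* libraries. The chemokines *CXCL8* and *CXCL1*, which rose in MCF10A, did not pass here, at 132 and 109 against 134 and 124 CPM for *CXCL8*. *CXCL5* had no reads in any DCIS.COM library, so no change could be measured for it in this line.

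The median of the target list in DCIS.COM was -0.70. It was -0.80 over 34 genes when *CXCL5*, without reads in this line, was left out and 3 genes were set to a limit. These were *CSF2*, *PTX3* and *MMP9*, each with at most 3 reads per pLOC-*MALINC1* library. *MMP9*, with at most 5 reads per pLOC-empty library, went from a fitted -0.65 to -0.90, so the value of -0.80 is no firmer than that of -0.70. Without 1 library, between 21 and 27 of the target genes passed in DCIS.COM and between 14 and 19 in MCF10A. Over all alternatives the counts ranged from 19 to 29 in DCIS.COM and from 5 to 21 in MCF10A, the 5 being with a replicate block in MCF10A alone.

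Of the 35 target genes, 13 passed in both lines, beside 17.2% of all genes. Of these, 8 rose in MCF10A and fell in DCIS.COM, namely *BCL2L1*, *CSF1*, *ICAM1*, *IL1A*, *IL1B*, *PLAU*, *PTX3* and *TAP1*, and 5 fell in both, namely *C3*, *LCN2*, *NINJ1*, *TNFAIP2* and *TNFAIP8*. Among all genes, 4.20% rose in MCF10A and fell in DCIS.COM, and 3.97% fell in both. The difference between the lines passed below 0 for 26 of the 35 and above 0 for none, 18 of them over 2-fold, beside 20.3% and 5.22% of all genes. At an unadjusted p below 0.05 (limma), 3 of the 35 were above 0, *SELE*, *TNFAIP2* and *TNFAIP8*. For *CXCL5* the difference rests on the MCF10A libraries alone.

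**Figure D5:**
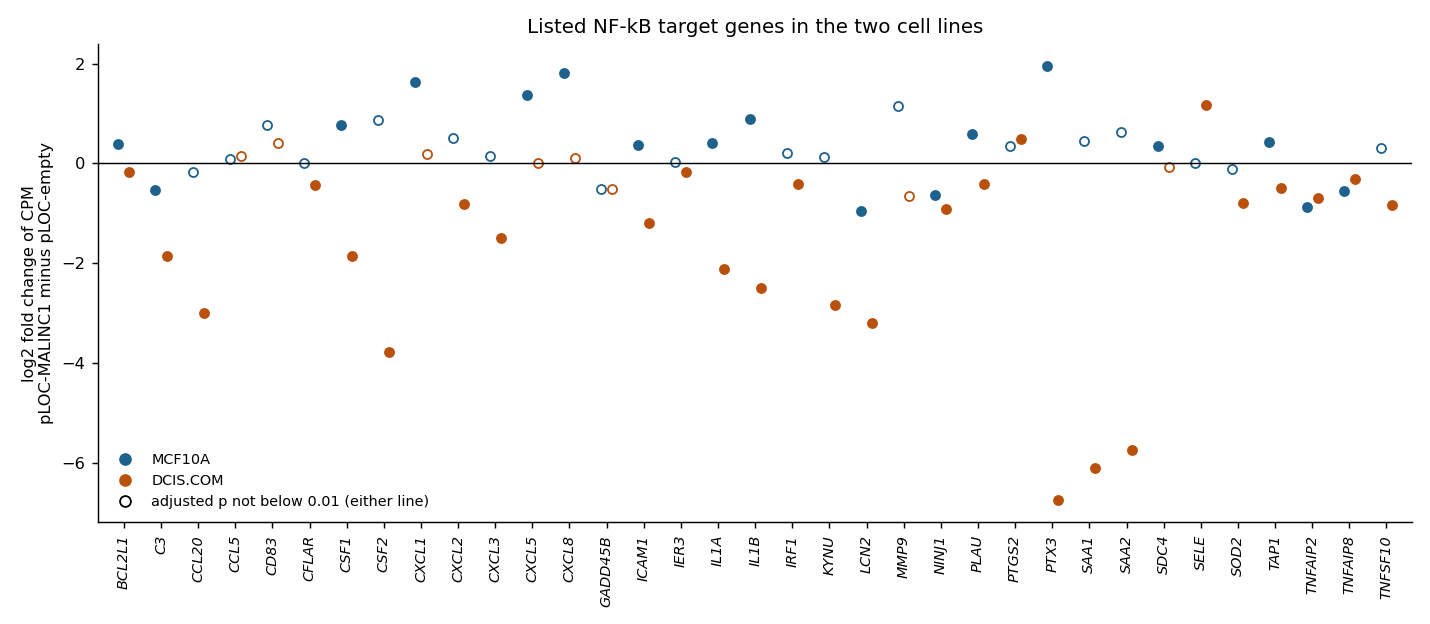
Log2 fold change of CPM with pLOC-*MALINC1* against pLOC-empty (y axis) for 35 listed NF-kB target genes (x axis) in MCF10A (blue) and DCIS.COM (orange), with open circles where adjusted p was not below 0.01. In DCIS.COM 25 filled points lie below 0 and in MCF10A 12 lie above it, and the fitted values of *PTX3*, *CSF2* and *MMP9* in DCIS.COM are not bounds, since these had at most 3 reads in each pLOC-*MALINC1* library.

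Transcript levels do not show the location, processing or activity of NF-kB proteins, none of which was measured in these libraries.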

How the data were processed

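RNA from subconfluent plates was made into paired-end libraries, 8 in all. As described by the authors, reads were aligned to hg19 (GRCh37) with Rsubread, counted over UCSC genes with featureCounts and turned into log2 CPM with edgeR, and these deposited log2 values were used. The strand setting of the counting is not given in the sources used here. Every value could be traced back to whole reads (100% of values within 0.05 of a whole read), from which CPM per library were computed. Group means over the 8 libraries were fitted with limma 3.58.1 (R 4.3.3, lmFit and eBayes with trend), with Benjamini-Hochberg adjustment over 13842 genes and a threshold of 0.01. The test was also run on reads simulated with the same dispersion for every gene and with changes in 1 group only. That setting is simpler than these libraries, so it does not check the calls made here. Lengths and positions came from GENCODE and promoters from RefSeq, searched with Python 3.11.15. Named for their values were all 10 genes and, from each pathway list, at most 6 DEGs with a mean of at least 5 CPM in 1 group, in order of fold change. Other genes named from the lists, such as *IRAK2*, *CHUK*, *TAB2*, *TANK* and *AZI2*, were chosen after their values were seen. The members and lists were chosen with earlier results of these data known. Alternatives were the pseudocount, a filter on low values, other scalings, voom on the recovered reads, fits within a line, a replicate block and leaving out each library.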

Additional observations from a re-analysis of the deposited data

Results flagged for a closer look

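The response to pLOC-*MALINC1* differed between the lines, by a test of the difference itself (limma, 2 libraries in each of 4 groups), for 5 of the 10 genes, beside 35.9% of all genes. On the log2 scale, DCIS.COM minus MCF10A, the difference was -0.62 for *NFKB2*, -0.78 for *RELB*, -0.55 for *NFKBIE*, -0.68 for *NFKBIZ* and -0.63 for *TNFAIP3*. For *NFKB2*, *RELB*, *NFKBIE* and *NFKBIZ* the fall in DCIS.COM passed the threshold and the change in MCF10A did not. For *TNFAIP3* the rise in MCF10A passed and the change in DCIS.COM did not. Cell line, medium and transgene level cannot be told apart in the differences between the lines. Groups of 2 libraries are too small to tell which library of a pair stands apart. By counts, the pair that differed most was that of DCIS.COM with pLOC-*MALINC1* (chi-square per degree of freedom 20.6). That value includes *RN7SL1* and *RN7SL2*, which took 11.5% and 8.22% of the reads in these libraries, and their part in it was not computed. By log2 CPM over genes the same pair was the most alike (Pearson r = 0.9969).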

How the results depend on the processing

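Of 860 values of single members under an alternative, 777 kept their direction and side of the threshold, 75 no longer passed, 0 newly passed and 8 turned in direction. After quantile normalization *NFKB1* had -0.017 and *RELA* -0.020 in MCF10A, and *NFKB1* 0.012 between the pLOC-empty lines. With totals without *RN7SL1* and *RN7SL2*, *RELA* had -0.0077 in MCF10A, *NFKB1* 0.043 between the pLOC-empty and 0.019 between the pLOC-*MALINC1* lines, and *REL* 0.078 between the latter. Without 1 library, the value of *RELA* in MCF10A ranged from -0.0030, without pLOC-*MALINC1* replicate 1, to 0.068. In MCF10A the count of 3 members became 1 when the line was fitted alone, and 1 to 3 without 1 library. In DCIS.COM the count of 5 became 3 when the line was fitted alone, and 3 to 5 without 1 library. For the difference it became 3 after quantile normalization, 3 after median scaling, 2 with totals without *RN7SL1* and *RN7SL2*, and 2 to 4 without 1 library. Without a library its group rests on 1 sample, assumed to vary like the other groups. The cause of these changes was not tested.

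The replicate numbers were not shown to pair the libraries, since the deviations of same-numbered libraries correlated by -0.156 between the MCF10A groups and 0.111 between the DCIS.COM groups. With a replicate block over all libraries, 3, 5, 5, 6 and 8 members passed in MCF10A, in DCIS.COM, for the difference, and between the pLOC-empty and the pLOC-*MALINC1* lines, the last against 9 without the block. With the MCF10A numbers crossed, a pairing tried after seeing the data, 1 member passed in MCF10A, and with a block in MCF10A alone, also tried then, 0 of 10 did by limma, the smallest adjusted p being 0.0151 for *NFKBIA*. With crossed numbers 11 of the 35 target genes passed in MCF10A, and with the block in MCF10A alone 5.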
